A study of Mus musculus with 8 samples.

Results

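Genes of macrophages and other myeloid cells were followed in the lining of the mouse large bowel. The set was 10 genes, taken by gene symbol from the annotation of the array: Mrc1, Ctss, Csf1r, Cd68, Itgam, Itgax, Laptm5, Tyrobp, Fcer1g and C1qa. Of these 10, 9 had a row, 1 each, among the 18097 rows of the array table, and no row carried the symbol Cd68. The study compared colonic mucosa with and without inhibition of Dnmt1, the enzyme that copies DNA methylation onto the new strand after replication. All 4 mice were males of 157 days and of mixed 129Sv/B6/D2 background, and all 4 carried the genotype Dnmt1LO/LO. In addition, 2 of them carried TgVillacIGY, and these are called transgenic mice here and the other 2 control mice. The labels name no promoter for the transgene and include no mouse with an unaltered Dnmt1 gene. RNA of each mouse was hybridised to 2 Illumina MouseRef-8 arrays, 8 arrays in all, and the mouse is the replicate (n = 2 per genotype).

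Macrophages of the gut wall lie below the epithelium, where they take up microbes and dying cells. They depend on the growth factor receptor Csf1r and are renewed from blood monocytes. Their surface and signalling genes include scavenger and lectin receptors, integrins that bind complement, and adaptor proteins that carry the signal of Fc receptors and related receptors into the cell. Several members are shared with other white cells: Laptm5 with lymphocytes, and Fcer1g with mast cells, natural killer cells and granulocytes.

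Raw signals averaged 698 to 1080 on an array, and 6646 to 7053 rows were detected on an array. A row counted as detected when its detection p, the chance of such a signal among negative control beads, was under 0.01. Dnmt1, the targeted gene, had raw signals of 790 and 665 without the transgene and of 214 and 203 with it, a log2 change of -2.20 ± 0.28 (SE) that missed the threshold over all rows (limma, adjusted p = 0.129). Of the epithelial genes listed, 13 of the 16 with a row were detected on at least 4 arrays. Of the fibroblast genes listed, 0 of 13 were. The transgenic mice were less alike than the control mice: 8.87% of tested rows differed over 2-fold between them, against 1.96% between the control mice.

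Sequence at the start of the genes is shown for the 4 members that were detected on any array, because Dnmt1 acts on the cytosine of CpG pairs and the promoter is where such pairs are usually studied. The stretches are from RefSeq (GRCm38.p6), run from 250 bases before to 50 after the annotated start on the strand of the gene, and have each CpG in capitals. Mrc1 is at chr2:14229164-14229463 (plus strand), Fcer1g at chr1:171234300-171234599 (minus strand), Ctss at chr3:95526536-95526835 (plus strand) and Laptm5 at chr4:130913066-130913365 (plus strand).
Mrc1: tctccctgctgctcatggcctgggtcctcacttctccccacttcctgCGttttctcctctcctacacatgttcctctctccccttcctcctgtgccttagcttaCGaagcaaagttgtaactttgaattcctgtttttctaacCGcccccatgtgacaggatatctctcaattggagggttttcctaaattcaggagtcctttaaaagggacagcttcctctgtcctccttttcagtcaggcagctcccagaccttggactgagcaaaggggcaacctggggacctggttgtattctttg
Fcer1g: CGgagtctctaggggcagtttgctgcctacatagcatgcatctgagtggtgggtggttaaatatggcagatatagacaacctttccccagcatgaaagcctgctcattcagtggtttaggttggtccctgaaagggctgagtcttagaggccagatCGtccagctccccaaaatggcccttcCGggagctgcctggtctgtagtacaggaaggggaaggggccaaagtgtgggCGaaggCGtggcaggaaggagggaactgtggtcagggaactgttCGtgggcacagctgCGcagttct
Ctss: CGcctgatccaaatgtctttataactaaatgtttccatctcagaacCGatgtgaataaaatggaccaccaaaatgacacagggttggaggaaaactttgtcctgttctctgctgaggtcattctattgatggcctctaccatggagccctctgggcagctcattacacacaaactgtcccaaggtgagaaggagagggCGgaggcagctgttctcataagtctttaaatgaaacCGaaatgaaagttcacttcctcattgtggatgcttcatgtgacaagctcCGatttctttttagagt
Laptm5: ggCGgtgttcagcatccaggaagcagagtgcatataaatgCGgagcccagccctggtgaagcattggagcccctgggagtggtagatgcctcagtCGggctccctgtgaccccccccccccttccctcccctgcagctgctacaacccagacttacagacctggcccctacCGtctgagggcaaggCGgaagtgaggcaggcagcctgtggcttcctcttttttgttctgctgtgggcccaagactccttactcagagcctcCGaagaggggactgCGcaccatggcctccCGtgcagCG

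The number of CpG pairs differed between these stretches. Mrc1 had 3, Ctss 5, Fcer1g 7 and Laptm5 9, where the median of 32851 promoters of this length was 7 and the quartiles were 3 and 20. Cd68, Itgam and Itgax, also in the table, had 4, 6 and 5. The core GAGGAAGT, a form of the sequence bound by the myeloid transcription factor Spi1, was searched on both strands. It was found once among the 7 member promoters, in Ctss on the opposite strand and beginning 2 bases before the start, and in 3.2% of all promoters. Methylation itself was not measured here, and a match in letters is only a description.

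Of the 9 members with a row, 5 were detected on 0 of 8 arrays (Csf1r, Itgam, Itgax, Tyrobp and C1qa), a share near the 56.4% of all 18097 rows that were detected on none. Fcer1g was detected on 2, Mrc1 on 4, and Ctss and Laptm5 on all 8. Only 3 members, Mrc1, Ctss and Laptm5, passed the filter of detection on at least 4 arrays and were tested among 6982 rows. In limma's moderated fit of mouse means 0 of the 3 passed an adjusted p of 0.05 (1 of them, Mrc1, had an unadjusted p under 0.05), and over all tested rows 0.129% passed. An unadjusted p under 0.05 was found for 8.39% of tested rows, and for 4.43% with the transgenic mice higher. Without transgenic mouse 2 all 3 passed, as did 12.2% of all tested rows, and without transgenic mouse 1 only Mrc1 did, beside 0.816% of rows. Without either control mouse 0 members and 0 rows passed; these fits with a lone mouse in 1 genotype take the spread from the other genotype. Csf1r and Itgam, which define the lineage, were not above background, so the data do not bear out the label of macrophage genes for the set as a whole, and it is described by its detected genes. In bulk tissue, fewer cells of a type and less RNA per cell cannot be told apart.

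**Figure D1:**
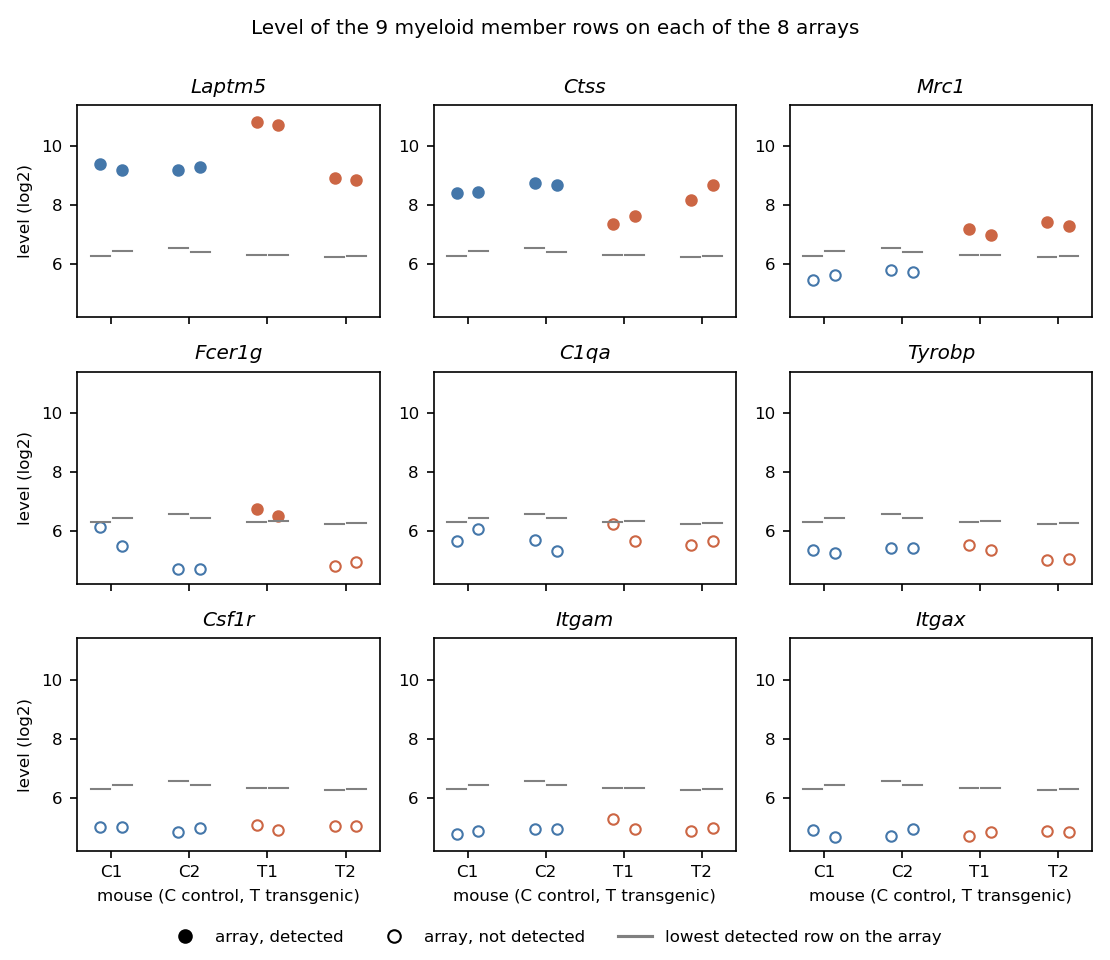
Level of each of the 9 member rows (log2 of the normalized signal, y axis) on both arrays of each mouse (x axis; C1 and C2 control mice, T1 and T2 transgenic mice); filled points are detected arrays, open points undetected ones, and grey bars the lowest level of a detected row on that array. Laptm5 and Ctss are detected on all 8 arrays, Mrc1 on the 4 transgenic arrays, Fcer1g on the 2 arrays of transgenic mouse 1, and the other 5 on none.

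Mrc1, the mannose receptor by which macrophages and some endothelial cells take up glycoproteins, was the member with the clearest split between genotypes. Its raw signal was 111.0 and 121.0 on the arrays of control mouse 1 and 139.4 and 115.1 on those of control mouse 2. Transgenic mouse 1 read 183.4 and 181.0, and transgenic mouse 2 read 273.7 and 265.2. Every transgenic array was thus above every control array, and the probe (ILMN_1239430) was detected on 4 of 4 transgenic arrays and 0 of 4 control arrays, where its detection p was 0.0576 to 0.0927.

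After normalization Mrc1 lay at 5.66 ± 0.15 in the controls and at 7.24 ± 0.19 in the transgenic pair (log2, SD, n = 2). The fitted change was 1.57 ± 0.19 (SE) with a 95% interval of 1.07 to 2.08, and it did not pass over all rows (limma, adjusted p = 0.118; unadjusted p = 0.000551, place 32 of 6982 rows by p). Because the control arrays give only an upper bound, the change is stated as at least 1.74-fold higher in transgenic mice. Set against the mean of the control mice, transgenic mouse 1 was at 1.44 and transgenic mouse 2 at 1.70, while the control mice differed from each other by 0.21.

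The Mrc1 row reached the test through the transgenic arrays alone, so it had to differ in order to be tested. The same pattern of detection, 0 control arrays and all 4 transgenic arrays, was shown by 0.974% of tested rows, and both transgenic mice were above both control mice in 21.7% of them. With 2 mice per group an exact permutation test of 1 value cannot give a p below 0.333. The size of the Mrc1 difference depends on how background is removed. It was 0.88 on the authors' series matrix values, 1.13 with an offset of 50 and 0.12 when background was inferred from all rows.

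By correlation, the rows nearest to Mrc1 over the 8 arrays, among 6457 other tested rows with a gene symbol, were Tex19.1 (Pearson r = 0.996), Foxc1 (0.992) and Tex19.2 (0.992). Tex19.1 and Tex19.2, both past the threshold (adjusted p = 0.0380 and 0.0150), are germ cell genes and Foxc1 is a forkhead transcription factor. Their levels in control mice 1 and 2 were 5.36 and 5.54 for Tex19.1, 4.88 and 4.97 for Foxc1 and 4.68 and 4.83 for Tex19.2. In transgenic mice 1 and 2 they were at 9.72 and 10.63, 6.48 and 6.65, and 8.90 and 9.44. All levels in control mice were below the lowest level of a detected row on the control arrays (6.30 to 6.57). Like the Mrc1 row, these rows thus reached the test through the transgenic arrays, so they had to differ in order to be tested. The 8 arrays stand for 4 mice, 2 arrays of a mouse share its RNA, and a row with 1 step between genotypes correlates with any other such row, so these values describe a shared shape only.

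Few other receptors of macrophages were above background. Of 22 listed receptor and lineage genes 20 had a row, 16 of these were detected on 0 arrays (56.4% of all rows were), and 2 were tested (0 passed). The lipopolysaccharide co-receptor Cd14, the other gene tested, was at 10.86 and 10.71 in control mice and 11.13 and 10.73 in transgenic mice, a change of 0.15 ± 0.21 (SE, limma adjusted p = 0.851). Named after its values were seen, Sirpa, an inhibitory receptor of myeloid cells, was detected on 1 transgenic array. It lay at 6.96 and 6.72 in control mice and at 8.89 and 7.31 in transgenic mice. Its control levels exceeded the lowest level of a detected row on the control arrays (6.30 to 6.57), so its detection p may be a mean over probes. Lyve1 was detected on 2 control arrays. Among those not above background on any array were Cd163, Cx3cr1, Adgre1, Msr1, Clec7a and Trem2. The summed normalized signal of the 20 rows was 2305.5 and 2154.5 in control mice and 3127.8 and 2264.3 in transgenic mice.

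Since endothelium also makes Mrc1, the vascular lists were read beside it. Of the lymphatic endothelial list 9 genes had a row, Mrc1 was the only one tested, and Lyve1, named after its values were seen and detected on 2 control arrays and 0 transgenic arrays, was at 6.21 and 6.84 in control mice and 5.92 and 5.59 in transgenic mice. Of 13 blood endothelial genes 3 were tested: the clotting factor carrier Vwf had a change of 2.96 (adjusted p = 0.0977), Plvap of fenestrated vessels was at least 1.19-fold higher (adjusted p = 0.210), and Esam was at 0.56 (adjusted p = 0.690). The other 10 included Pecam1, Cdh5 and Kdr, which were detected on no array. What part vessels or macrophages had in the Mrc1 signal was not tested.

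Csf1r (ILMN_2710819), the receptor for the macrophage growth factors Csf1 and Il34, had raw signals of 78.9 to 100.3 over the 8 arrays with detection p of 0.196 to 0.723. Its row did not carry the detection steps of a single probe, so its detection p may be a mean over probes. Mouse means were 5.02 and 4.90 in control and 4.99 and 5.04 in transgenic mice, and the genotypes overlapped. Neither Csf1 nor Il34, its ligands, was detected on any array, nor was Spi1. Of 16 genes of this axis and of myeloid transcription factors, 4 were tested and 0 passed. Both transgenic mice were above both control mice for 2 of the 4 (21.7% of all tested rows), the cytokine receptor chain Csf2ra (change 0.44 ± 0.28, SE) and the inflammatory factor Cebpb (0.18 ± 0.16, SE). Irf8, which shapes monocyte and dendritic cell fate and is also used by B cells, was at 0.29 ± 0.21.

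The integrin chains Itgam and Itgax, which pair with Itgb2 to form complement receptors of macrophages and dendritic cells, were at background. Itgam (ILMN_2696017) ran from 73.3 to 96.4 in raw signal with detection p from 0.147 to 0.769. Itgax (ILMN_1222345) ran from 67.1 to 86.5 with detection p from 0.409 to 0.934. Neither row separated the genotypes: mouse means of Itgam were 4.81 and 4.94 in control and 5.09 and 4.92 in transgenic mice, and those of Itgax 4.78 and 4.82 against 4.77 and 4.86. Their partner Itgb2 was not detected on any array. Of the 14 leukocyte integrin and adhesion genes with a row 12 were detected on no array. The 2 tested were Itgae, the integrin of intraepithelial lymphocytes (change 0.61 ± 0.31, SE, adjusted p = 0.655), and Icam1 (0.40 ± 0.29, SE, adjusted p = 0.728).

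C1qa (ILMN_2776431), the A chain of the complement starter C1q that macrophages secrete, came nearest to detection among the undetected members. Its raw signal was 117.9 and 138.7 in control mouse 1, 134.0 and 99.3 in control mouse 2, 128.1 and 110.1 in transgenic mouse 1, and for transgenic mouse 2 it read 121.3 and 135.6. The lowest detection p, 0.0113, came from array 1 of transgenic mouse 1, and the arrays of a mouse differed by up to 0.57 on the log2 scale. The genotypes overlapped. Its partner chains C1qb and C1qc were detected on no array either, and 11 of 18 complement genes with a row were not. Of the 6 complement genes tested 0 passed and Cd59a, which shields cells from lysis by complement, had the smallest p (change -1.67, adjusted p = 0.212). Cd59a was detected on 4 control arrays and 2 transgenic arrays, so the control arrays alone took its row past the filter.

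Tyrobp and Fcer1g are short membrane adaptors whose phosphorylated tyrosines recruit the kinase Syk. Tyrobp (ILMN_2867147) was detected on no array, with raw signals of 94.4 to 122.3 and detection p of 0.0652 to 0.342. Its mouse means were 5.32 and 5.44 in control mice and 5.45 and 5.04 in transgenic mice, which overlap.

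Fcer1g (ILMN_2748875), the chain shared by the IgE receptor and by activating IgG receptors, differed between mice more than between genotypes. Its raw signal was 139.5 and 115.6 in control mouse 1, 71.7 and 67.5 in control mouse 2, 154.5 and 146.8 in transgenic mouse 1, and for transgenic mouse 2 it read 79.9 and 94.7. It was detected on both arrays of transgenic mouse 1 (detection p 0.00125 and 0.00627) and on no other array. Control mouse 1 came near the detection limit on array 1 (detection p 0.0188) but not on array 2 (0.105). Control mouse 2 and transgenic mouse 2 were at background. The mouse means were 5.81 and 4.71 in control mice and 6.62 and 4.88 in transgenic mice, and the row was not tested because 2 detected arrays fall short of 4. Fitted without the filter, its change was 0.49 with a 95% interval of -1.80 to 2.78 (limma, adjusted p = 0.932).

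Some of the mast cell genes detected on any array were highest in the mouse in which Fcer1g was detected. Named after their values were seen, Cpa3, a mast cell carboxypeptidase, was at 9.22 in transgenic mouse 1 and at 4.93 to 5.46 in the other 3 mice. Fcer1a, the IgE-binding chain, was at 9.11 against 5.83 to 6.29, and Gata2, a transcription factor of mast cells, at 8.17 against 4.91 to 5.86. Mcpt1, a protease of mucosal mast cells, was at 11.56 against 5.71 to 8.02. The mast and eosinophil list had 16 genes with a row, of which 6 were detected on both arrays of transgenic mouse 1 and 2, 1 and 2 in control mouse 1, control mouse 2 and transgenic mouse 2.

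The summed signal of that list was 4950.2 in transgenic mouse 1 against 737, 585 and 563 in control mouse 1, control mouse 2 and transgenic mouse 2. On no array, those of transgenic mouse 1 included, were 10 of the 16 detected: among them the mast cell genes Mcpt2, Mcpt4, Tpsab1, Tpsb2 and Ms4a2 and the eosinophil genes Siglecf, Prg2 and Epx. Though below detection, the levels of these mast cell genes were also highest in transgenic mouse 1. Those of the named eosinophil genes were not. Of the 6 detected genes, those not highest in transgenic mouse 1 were the chymase Cma1 (7.63 and 8.16 in control mice, 7.79 and 5.70 in transgenic mice) and the histidine decarboxylase Hdc, which was at least 1.89-fold higher in transgenic mice (7.28 and 7.43, against 6.09 and 5.58). Of the 3 list genes tested 0 passed. The part of mast cells in the Fcer1g signal was not tested.

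**Figure D2:**
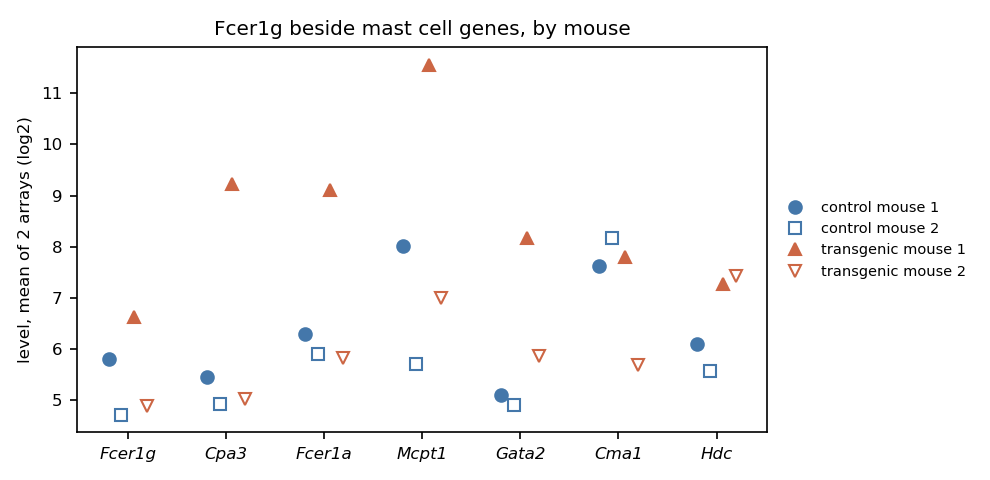
Level of Fcer1g and of the 6 genes of the mast cell and eosinophil list that were detected on any array, as the mean of 2 arrays (log2, y axis) for each of the 4 mice. Transgenic mouse 1 is highest for Fcer1g, Cpa3, Fcer1a, Mcpt1 and Gata2 but not for Cma1 or Hdc.

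The genes that act with both adaptors were read next. Of 21 listed adaptor, Fc receptor and kinase genes with a row, 13 were detected on no array, near the share of all rows, among them Syk, Fcgr1, Fcgr2b, Fcgr3 and Trem2. The 5 tested genes all had an unadjusted limma p under 0.05 (8.39% of all tested rows did), and 0 passed after adjustment. Both transgenic mice were above both control mice for 4 of them (21.7% of all tested rows): the exchange factor Vav1 (change 1.62 ± 0.33, SE, adjusted p = 0.267), the phospholipase Plcg2 (1.30 ± 0.33, SE, adjusted p = 0.408), the phosphatase Ptpn6 (0.85 ± 0.19, SE, adjusted p = 0.313) and the kinase Btk (0.62 ± 0.19, SE, adjusted p = 0.492). Hcst, an adaptor of natural killer and T cell receptors named after its value was seen, was lower in both, at -0.62. Vav1, Plcg2 and Ptpn6 are also on the list of tuft cells, chemosensory cells of the epithelium. Of 19 tested genes of that list, 17 were above both control mice in both transgenic mice (21.7% of all tested rows) and 0 passed. Only 14 of the 19 were detected on all 8 arrays. The summed signal of the tuft list was 5459 and 5594 in control mice and 17404 and 11077 in transgenic mice. Its part in the values of the signalling genes was not tested.

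Laptm5, a lysosomal membrane protein of white cells that dampens receptor signalling, was detected on all 8 arrays and set the transgenic mice apart from each other. Its raw signal (ILMN_1217849) was 814.4 and 647.5 in control mouse 1 and 733.9 and 646.3 in control mouse 2. It was 1383 and 1409 in transgenic mouse 1 but 629.3 and 627.8 in transgenic mouse 2. The first transgenic mouse thus exceeded all controls, and the second lay below them.

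In normalized values Laptm5 lay at 9.28 ± 0.04 in the controls and at 9.83 ± 1.33 in the transgenic pair (log2, SD, n = 2). The change of 0.55 ± 0.63 (SE) had a 95% interval of -1.08 to 2.19 and did not pass (limma, adjusted p = 0.817). Against the control mean, transgenic mouse 1 was at 1.49 (2.82-fold) and transgenic mouse 2 at -0.39, so the direction rests on transgenic mouse 1 and turns to -0.39 without it. The transgenic mice differed by 1.88, or 3.68-fold, whereas arrays of 1 mouse differed by at most 0.23. That difference between transgenic mice was larger than the one seen in 98.15% of tested rows, where the median was 0.30.

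The rows most like Laptm5 over the 8 arrays were St6galnac2, a sialyltransferase (r = 0.998), the tetraspanin Cd81 (0.996) and the neutrophil surface gene Cd177 (0.994). Each was highest in transgenic mouse 1 and lowest in transgenic mouse 2: 13.07 and 11.72 for St6galnac2, 14.11 and 13.32 for Cd81, and 13.53 and 12.13 for Cd177. Of the other neutrophil genes on the list 15 had a row and all 15 were detected on 0 arrays.

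The wider white cell list was detected about as often as rows at large. Of 21 such genes with a row 12 were detected on no array, against 56.4% of all rows, among them the common white cell phosphatase Ptprc and Cd53. Of 7 tested 0 passed, with 1 above and 2 below both control mice in both transgenic mice (21.7% and 20.9% of all tested rows) and a median change of -0.27. The small antigen Cd52 was at -0.62 ± 0.19 and the oxidase subunit Cyba at -0.49 ± 0.20 (SE, adjusted p = 0.511 and 0.606). Rac2, a GTPase of blood cells, was detected on the 4 transgenic arrays alone and was at least 1.57-fold higher (adjusted p = 0.200). Cytip was at 8.86 and 9.08 in control mice and at 7.11 and 9.01 in transgenic mice 1 and 2, so it was low where Laptm5 was high.

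Ctss, the cathepsin that trims the invariant chain Cd74 inside antigen-presenting cells, was detected on all 8 arrays. Its raw signal (ILMN_1246861) was 435.1 and 414.1 in control mouse 1 and 558.6 and 442.5 in control mouse 2. Transgenic mouse 1 read 196.5 and 240.5, and transgenic mouse 2 read 409.8 and 572.8. Transgenic mouse 1 was below all other mice, while the arrays of transgenic mouse 2 lay on either side of the control arrays.

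Ctss lay at 8.58 ± 0.20 in the controls and at 7.98 ± 0.66 in the transgenic pair (log2, SD, n = 2), which gives a change of -0.60 ± 0.35 (SE) with a 95% interval of -1.53 to 0.32 (limma, adjusted p = 0.685). Set against the control mean it was -1.07 in transgenic mouse 1, a 2.10-fold lower level, and -0.13 in transgenic mouse 2. The mouse means of the genotypes overlapped, since transgenic mouse 2 (8.450) lay just above control mouse 1 (8.442). The 2 arrays of transgenic mouse 2 were 0.52 apart, the widest gap between arrays of a mouse among the 3 tested members. The rows most like Ctss were Brcc3 (r = 0.975), Plce1 (0.972) and the annexin Anxa1 (0.971). All 3 were lowest in transgenic mouse 1, at 7.22, 5.47 and 7.18, against 7.51 to 7.61, 6.31 to 6.77 and 8.09 to 8.22 in the other mice.

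**Figure D3:**
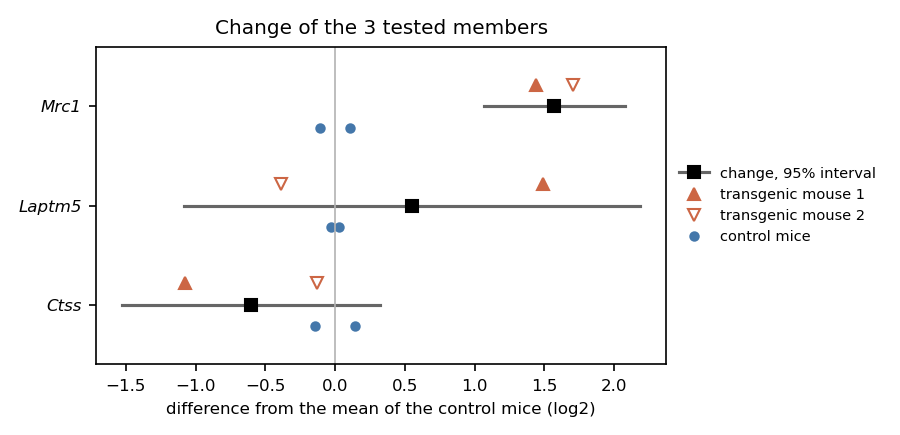
Difference from the mean of the control mice (log2, x axis) for the 3 tested members; squares and bars give the limma change with its 95% interval, triangles the 2 transgenic mice and blue points the 2 control mice. Both transgenic mice lie to the right for Mrc1 (1.44 and 1.70), on opposite sides for Laptm5 (1.49 and -0.39), and to the left for Ctss (-1.07 and -0.13). For Ctss, transgenic mouse 2 lies within the range of the control mice.

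The genes of the class II pathway in which Ctss acts lay mostly on the other side of 0. Cd74 was at 9.83 and 9.88 in control mice and 12.15 and 11.56 in transgenic mice, a change of 2.00 ± 0.25 (SE, limma adjusted p = 0.118). Of 8 tested class II and loading genes, 6 were above both control mice in both transgenic mice (21.7% of all tested rows), 1 was below, and 0 passed. The class II chains H2-Eb1 and H2-Ab1 were at 2.12 and 1.75, and the loading factor H2-DMb1 at 1.45. Ctss and Ifi30, the thiol reductase of the same compartment, were the exceptions, with Ifi30, named after its value was seen, at -0.35. The summed signal of the list was 3306 and 3986 in control mice and 11469 and 6798 in transgenic mice. In transgenic mouse 1, where the class II sum was highest, Ctss was lowest.

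The lysosomal genes, a list that includes Ctss and Laptm5, lay on both sides of 0. Of 28 genes with a row 23 were tested and 0 passed, and the median change was -0.08, beside -0.01 over all 6982 rows. Both transgenic mice were below both control mice for 8 of the 23 and above for 1, against 20.9% and 21.7% of all tested rows. With median scaling, those shares over all rows were 27% and 17.2%, the median over all rows was -0.07, and that of the list was -0.25. The smallest p values were those of Ctsf (-0.88 ± 0.20, SE, adjusted p = 0.338), Ctsw of cytotoxic lymphocytes (-0.90 ± 0.28, SE, adjusted p = 0.511) and the endopeptidase Lgmn (-0.57 ± 0.21, SE, adjusted p = 0.589). Ctsf was detected on 4 control arrays but only 1 transgenic array, and its levels in transgenic mice (6.17 and 6.18) were near the detection limit. The control arrays alone thus took its row past the filter.

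**Figure D4:**
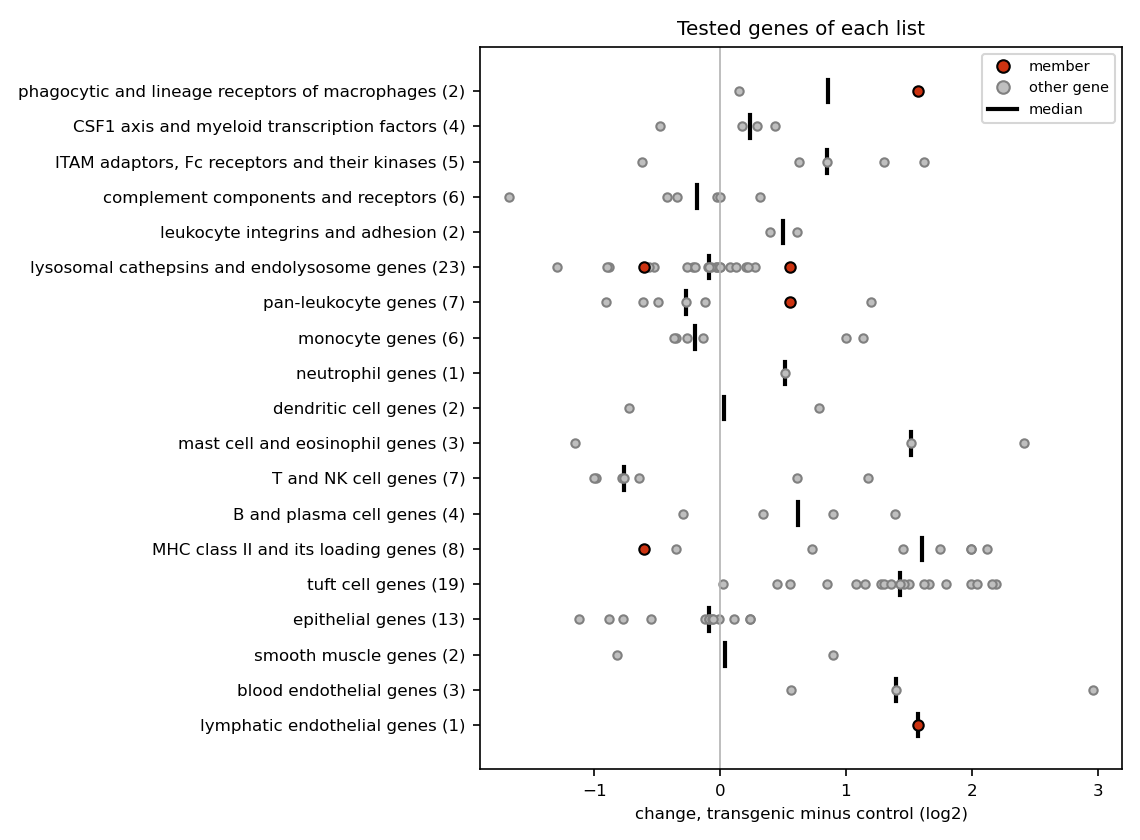
Change between genotypes (transgenic minus control, log2, x axis) for each tested gene of each list (y axis, number tested in brackets); red points are members and black bars the median. The tested members Mrc1, Laptm5 and Ctss are at 1.57, 0.55 and -0.60.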

How the data were processed

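RNA of colonic mucosa from 4 mice was read on 8 Illumina MouseRef-8 v2.0 arrays, 2 per mouse. Per the submitters' processing notes, the software was BeadStudio and Partek, with no version given. The authors deposited linear intensity values with no background subtraction and no scaling between arrays. The deposited detection fraction, headed as a p-value, rises with intensity and was read as 1 minus the detection p. A deposited log2 table from the series matrix, whose values equal quantile-normalized intensities, served as an alternative.

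Background mean and SD were inferred from the 13920 of 18097 rows whose detection values were whole steps of 1 in 798 (tolerance 6e-06), and normexp with an offset of 16, quantile normalization and log2 followed. Rows with a detection p under 0.01 on at least 4 of 8 arrays, 6982 in all, were tested. Both arrays of each mouse were averaged first, and 2 transgenic mice were compared with 2 control mice by limma 3.58.1 in R 4.3.3 (lmFit, eBayes, two-sided, Benjamini-Hochberg over all tested rows, threshold 0.05). Array-level fits, in which mouse was a random effect, used statmod 1.5.0. Nothing in the labels says more of how mice were sampled than that they are separate animals. An "at least" fold compares the brighter group with, per array, the higher of the row's own level and the lowest level of a detected row. A summed signal adds the normalized linear signals of a list's rows in a mouse, less the offset. The script was tested on simulated data.

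Gene symbols came from the platform annotation: 16610 rows had 1 symbol, 0 several and 1487 none. Members, gene lists and tests were chosen with earlier results of these data known. Named genes were the members, Dnmt1, up to 4 tested genes of each list with the smallest p, and the 3 rows most correlated with each tested member whose mouse means spanned at least 0.5; other tested genes are said to be named after their values were seen, and undetected genes are examples from the lists. The number of mice, 2 per genotype, limits the precision. Alternatives covered background, offset, scaling, filters, single arrays, array-level fits, an intensity trend and leaving out each mouse.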

Additional observations from a re-analysis of the deposited data

Results flagged for a closer look

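In groups of 4 arrays of 1 genotype, a value was singled out when it lay far from the other 3 by Dixon's criterion. Of 152 such groups 5 had one, where chance gives about 1 in 20, and the 2 arrays of a mouse share RNA. No member row was among them. Dnmt1 was at 9.63 (log2) on array 1 of control mouse 1, above 9.14 to 9.22 on the other control arrays. On the same array the complement regulator Cr1l was at 7.17 against 7.57 to 7.66, H2-DMb1 at 7.09 against 7.33 to 7.34, and the goblet cell gene Tff3 at 14.25 against 14.47 to 14.50. Rac2 was at 6.43 on array 1 of control mouse 2, against 5.65 to 5.74.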

How the results depend on the processing

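The count of rows past the threshold, 9 in the reported fit, was 0 with background inferred from all rows (555 at an unadjusted p under 0.05), 2 with no detection filter, 1 among rows detected on all 8 arrays, 185 with 8 arrays and the mouse as a random effect, and 137 when a replicate block for the array number was added. It ran from 0 to 851 when 1 mouse was left out: 0 without control mouse 1 (333 unadjusted), 0 without control mouse 2 (199 unadjusted), 57 without transgenic mouse 1 and 851 without transgenic mouse 2. The count of members past the threshold, 0, became 1 (Mrc1) in both array-level fits (adjusted p = 0.00127, and 0.00365 with the replicate block), which count arrays beside mice. That count was 0 to 3 with 1 mouse left out. Over all alternatives the adjusted p of Mrc1 ran from 0.00127 to 0.835. The array numbers do not pair mice across genotypes. The count of tested members with both transgenic mice beyond both control mice, 1, was 0 among rows detected on all 8 arrays, where Mrc1 is no longer tested. It was 2 on array 1 alone, where 18% of all rows were higher and 17.3% lower, and 1 to 3 with 1 mouse left out. With a lone mouse most rows can separate: 44% of all rows were higher and 41.2% lower without transgenic mouse 2, and 38% and 40.8% without transgenic mouse 1. The shares were 32.8% and 32.9% without control mouse 1, and 27.8% and 27.6% without control mouse 2. The change of Laptm5 turned to -0.39 without transgenic mouse 1 and was 1.49 without transgenic mouse 2; the cause was not tested. Ctss kept its sign in 15 of 15 alternatives and Mrc1 in 14 of 14. For Mrc1 this lends no support, since its row passed the filter through the transgenic arrays alone and the alternatives reuse those arrays. Nor does it for Ctss, since the alternatives reuse the same mice and its change was only -0.13 without transgenic mouse 1. Of 283 list medians under alternatives 246 stayed near their value, 37 did not, and 11, in 6 lists, turned sign. With 2 mice per genotype, and 5 members not above background, differences in most of the set could not be measured.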

Other observations

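Lists of other white cells showed mixed values. T and natural killer cell genes had 7 tested of 17 with a row, and 0 passed the adjusted threshold. An unadjusted limma p under 0.05 was found for 5 (8.39% of all tested rows). Both transgenic mice were below both control mice for 5 and above for 2 (20.9% and 21.7% of all tested rows), with a median change of -0.76. That median was -0.06 with background inferred from all rows. It was -0.08 among rows detected on all 8 arrays, but only 2 genes, Ccl5 and Itgae, were left there. The T cell receptor chains Cd3d and Cd3g were at -0.99 and -0.78, and the chemokine Ccl5 at -0.76. Cd3d and Cd3g were detected on 4 control arrays but only on the 2 arrays of transgenic mouse 2. So were Cd3e and, named after its value was seen, Nkg7. The control arrays alone thus took these rows past the filter, and transgenic mouse 1 gives only an upper bound. The 2 genes with both transgenic mice above, named after their values were seen, were the pore-forming Prf1 at 1.18 and Itgae at 0.61. Prf1 was detected on only 3 control arrays, although its control levels were 11.13 and 11.05. These exceeded the lowest level of a detected row on the control arrays (6.30 to 6.57), so its detection p may be a mean over probes. B and plasma cell genes had 4 tested of 14 (0 past the threshold). Ly6d, detected on the 4 transgenic arrays alone, was at least 1.12-fold higher in transgenic mice. The secretory genes Fkbp11 and Xbp1 were at 0.90 and 0.34, and the plasma cell surface gene Sdc1 at -0.29. Monocyte genes had 6 tested of 14 (0 past the threshold), with the lysozyme Lyz1 at 1.01, Ifitm3 at 1.14, the galectin Lgals3 at -0.37 and Ly6c1 at -0.26. The other 8 were detected on no array (56.4% of all rows were), among them Ccr2, F13a1 and, in the row read, the second lysozyme Lyz2. Of 17 dendritic cell genes 2 were tested, Cd83 (detected on 4 control and 2 transgenic arrays) at -0.72 and Bst2 at 0.78. Lgals3 is also abundant in colonic epithelium.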
